A study of Mus musculus with 816 samples.

Results

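P3C (Pam3Cys-Ser-(Lys)4) is a synthetic lipopeptide with 3 fatty acid chains that imitates the lipoproteins of bacterial walls. Its effect on cultured mouse microglia after 24 h was taken from the 6 cultures labelled with P3C as the only stimulus at that time, set against the 40 cultures labelled as untreated at 24 h, out of 816 samples in the series. All cultures were primary microglia of neonatal mice from a commercial supplier, grown in coated multiwell plates, and none carried a genetic change by the labels. P3C was given at 0.001 ug/ul in fresh medium. The labels do not say that the cultures came from separate animals or preparations. The p-values at 24 h rest on the spread between cultures of the same label, pooled over 374 cultures in 39 groups. They treat the 6 P3C cultures as independent, although these came from 2 plates, and do not measure a spread between animals or preparations. The P3C cultures of each plate carried 1 Source ID in the header, and it differed between the 2 plates. A further 18 cultures given LPS_hi (bacterial lipopolysaccharide at 0.0001 ug/ul for 24 h), 6 given P3C for 72 h at the same dose and 25 left untreated for 72 h served for comparison. RNA was read near the 3′ end of transcripts, and each value is in CPM, the read count of a gene scaled to counts-per-million of all mapped reads of its culture.

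P3C is recognised at the cell surface by TLR2 paired with TLR1. The paired receptor recruits the adaptor MyD88 and the IRAK kinases, and these lead to the transcription factor NF-kB and to the MAP kinases, which feed the AP-1 factors. LPS is recognised by TLR4 with CD14 and MD-2, which uses MyD88 as well, and in addition the adaptors TRAM and TRIF, a route to interferon beta and to the genes that type I interferon induces. Microglia, the resident macrophages of the brain, respond to such ligands with cytokines and chemokines, while genes that mark their resting state in the brain are known to fall in culture and on activation.

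Sequencing depth, estimated from the value that 1 read takes among the low values, lay between 1.60 and 15.6 M reads in the P3C cultures (median 5.14) and between 1.09 and 14.99 M reads in the untreated ones (median 5.36). The 6 P3C cultures came from 2 plates. Replicates 1 to 3 stood on the first plate, all in edge wells (replicate 3 in a corner), at 7.22 to 15.6 M reads. Replicates 4 to 6 stood on the second plate, 1 of them in an edge well, at 1.60 to 3.06 M reads. These plates also held 9 and 4 of the untreated cultures, of which 1 stood in an edge well. Genes above 5 CPM numbered 6668 to 8214 in the P3C cultures (6668 to 7163 on the second plate) and 8096 to 9466 in the untreated cultures. Pearson's r of log2 values between P3C cultures was 0.943 to 0.951 within the first plate, 0.798 to 0.821 within the second and 0.795 to 0.845 between them, against a median of 0.890 between untreated cultures.

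The label of microglia was checked against marker genes. The 12 microglia and macrophage markers summed to 7438 to 11507 CPM in the P3C cultures and 5992 to 13379 CPM in the untreated ones. Their members differed in direction, since 7 fell and 2 rose (median log2 fold change -1.98). Adgre1, an adhesion receptor of macrophages, rose by 2.25 ± 0.21 (SE, limma adjusted p = 5.93e-22) and Spi1, a transcription factor of myeloid cells, by 1.46 ± 0.29 (SE, limma adjusted p = 8.88e-06). Itgam, Aif1 and Csf1r were not called. The summed markers of other cells were low in both groups. Those of neutrophils came to 0.326 to 43.3 CPM with P3C and 0 to 32.6 CPM without, with 7 of 10 (Ly6g, Elane, Ngp and Ltf among them) listed at 0 in all 6 P3C cultures. Those of monocytes reached 7.49 CPM with P3C and 14.7 CPM without, those of lymphocytes 3.85 and 6.79 CPM, those of neurons 4.62 and 35.7 CPM, and those of astrocytes 19.3 and 37.6 CPM. Oligodendrocyte-lineage markers reached 97.4 CPM with P3C and 126 CPM without, endothelial cell and pericyte markers 105 and 186 CPM, and fibroblast markers 125 and 392 CPM. In cultures read as bulk RNA, fewer cells of a type and less RNA per cell cannot be told apart.

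P3C lowered the share of many more genes than it raised. A gene was called when its limma p-value, adjusted by Benjamini-Hochberg over all genes tested, was under 0.05 and its log2 fold change on the log2(CPM + 1) scale was at least 1 in size. Of 14208 genes tested, 576 rose (4.05%) and 3364 fell (23.7%), and the median log2 fold change over all genes tested was -0.41. Rescaling the cultures by their median ratio shifted that median by 0.13, to -0.28, and gave 789 genes that rose and 2711 that fell, so that the share of called genes that rose went from 14.6% to 22.5%. With the library pool as a factor, 693 genes rose and 1857 fell. In that fit the share of called genes that rose was 27.2% and the median log2 fold change -0.19. The size of the decrease differed between the plates. Without the 3 P3C cultures of the second plate, 799 genes rose and 1945 fell, and without the 3 of the first plate, 786 rose and 4102 fell. Both the lower depth and the smaller number of genes above 5 CPM of the second plate moved with this difference, and their part in it was not tested.

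The 28 genes with the largest increases and decreases, described next, had no overlap between the 6 P3C and the 40 untreated cultures and the same direction on both plates, which is how they were chosen. Over all genes tested, 113 rose without overlap (0.795%) and 207 fell without overlap (1.46%). The 14 genes with the largest increases encode chemoattractants and their receptors, pattern recognition and inhibitory receptors, secreted proteins, and enzymes and signalling proteins.

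Cxcl2, a chemokine that attracts neutrophils, ranged from 229 to 3685 CPM (median 1709) with P3C and from 0 to 112 CPM (median 22.4) without. Its log2 fold change was 5.97 ± 0.66 (SE, limma adjusted p = 6.97e-16), with 6.36 on the first plate and 5.88 on the second. Among the P3C cultures replicate 4 was the highest and replicate 3 the lowest, and even that culture lay above each untreated one. Fpr1, a receptor for formylated bacterial peptides, ranged from 291 to 669 CPM (median 520.0) with P3C and from 0.787 to 30.3 CPM (median 10.2) without, a log2 fold change of 5.69 ± 0.39 (SE, limma adjusted p = 2.42e-34). Fpr2, its relative with a wider range of peptide ligands, ranged from 399.6 to 2919 CPM (median 1249) with P3C and from 15.04 to 159.6 CPM (median 45.8) without, a log2 fold change of 4.49 ± 0.32 (SE, limma adjusted p = 1.64e-32). The 3 cultures of the first plate held the highest Fpr1 levels and those of the second plate the highest Fpr2 levels.

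Marco, a scavenger receptor that binds bacteria, ranged from 664 to 4608 CPM (median 3105) with P3C and from 9.13 to 149 CPM (median 39.5) without. Its log2 fold change was 5.88 ± 0.41 (SE, limma adjusted p = 1.51e-33), and its level was higher in each culture of the second plate than in any of the first. Cd300e, an activating receptor of myeloid cells, ranged from 42.3 to 215 CPM (median 94.9) with P3C and from 0 to 5.63 CPM (median 0.956) without, a log2 fold change of 5.67 ± 0.37 (SE, limma adjusted p = 1.68e-38). Siglece, an inhibitory receptor for sialic acids, ranged from 156 to 414 CPM (median 304) with P3C and from 0 to 37.7 CPM (median 8.32) without, a log2 fold change of 4.87 ± 0.46 (SE, limma adjusted p = 6.78e-21). Gpr18, a G protein-coupled receptor, had values of 22.8 to 156 CPM with P3C (median 86.99) and 0 to 9.19 CPM without (median 1.79), a log2 fold change of 4.88 ± 0.39 (SE, limma adjusted p = 5.81e-28). For Marco, Cd300e and Gpr18 the lowest P3C culture was replicate 3, and for Siglece it was replicate 5.

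Of the secreted proteins, Lcn2, a lipocalin that withholds iron from bacteria by binding their siderophores, ranged from 64.8 to 947 CPM (median 521) with P3C and from 0 to 46.2 CPM (median 14.3) without, a log2 fold change of 5.74 ± 0.67 (SE, limma adjusted p = 2.04e-14). Mmp9, a gelatinase, ranged from 64.5 to 202 CPM (median 76.1) with P3C and from 0 to 16.4 CPM (median 1.75) without, a log2 fold change of 5.02 ± 0.53 (SE, limma adjusted p = 2.1e-17). Adm, which encodes the vasodilator peptide adrenomedullin, had values of 5.64 to 163 CPM with P3C (median 47.97) and 0 to 4.02 CPM without (median 0.949), a log2 fold change of 4.47 ± 0.42 (SE, limma adjusted p = 6.71e-21). The lowest P3C culture was replicate 3 for Lcn2, replicate 5 for Mmp9 and replicate 6 for Adm, and for Adm that culture stood only a little above the highest untreated one.

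Pim2, a kinase that promotes survival and growth, ranged from 355 to 836 CPM (median 419) with P3C and from 0.208 to 33.4 CPM (median 9.67) without, a log2 fold change of 5.71 ± 0.44 (SE, limma adjusted p = 1.24e-28). Replicate 6 stood apart above the other 5 P3C cultures, which lay within 355 to 454 CPM. Ptges, the inducible synthase of prostaglandin E2, ranged from 107 to 667 CPM (median 387) with P3C and from 0 to 29.6 CPM (median 12.5) without, a log2 fold change of 4.88 ± 0.40 (SE, limma adjusted p = 1.58e-26). Slc13a3, a sodium-coupled carrier of dicarboxylates, had values of 18.6 to 129 CPM with P3C (median 87.3) and 0 to 11.9 CPM without (median 2.03), a log2 fold change of 4.58 ± 0.38 (SE, limma adjusted p = 2.69e-26), and its lowest P3C culture, replicate 4, stood apart from the other 5. Traf1, an adaptor of TNF receptors, had values of 17.3 to 198 CPM with P3C (median 93.6) and 0 to 16.4 CPM without (median 2.22), a log2 fold change of 4.48 ± 0.42 (SE, limma adjusted p = 3.72e-21). Over these 14 genes replicate 3, the corner well, was the lowest culture of its plate in 12 and the lowest of all 6 in 9. Across the 576 genes that rose it was the lowest in 210, and the median log2 difference from the untreated mean was 1.27 in that culture against 1.66 to 1.96 in the other 5.

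**Figure D1:**
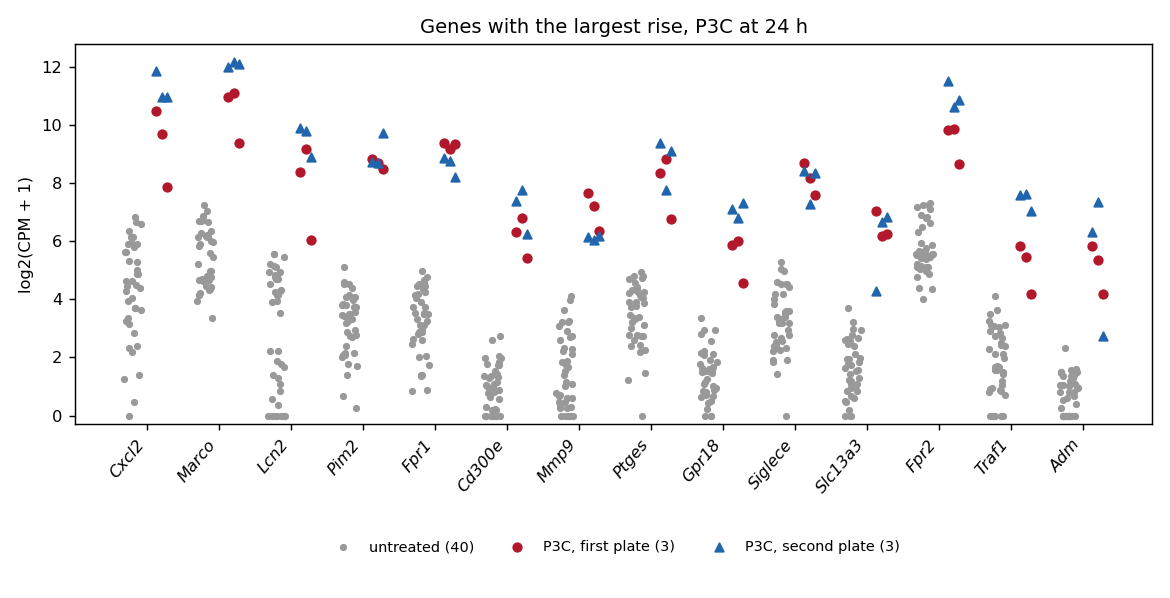
Levels of the 14 genes with the largest increases, as log2(CPM + 1), in each of the 40 untreated cultures (grey), the 3 P3C cultures of the first plate (red circles) and the 3 of the second plate (blue triangles). In all 14 genes the lowest P3C culture lies above the highest untreated culture, which the choice of genes required.

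The promoters of the 4 genes with the largest increases are shown because NF-kB, the factor that the TLR2 pathway activates, binds kappaB sites. Each window runs from 250 bases before to 50 after the transcription start in RefSeq's annotation of GRCm38.p6, printed on the strand of the gene, 5′ to 3′, with capitals on matches to a kappaB-type motif searched on both strands, which is GGG, then any 2 bases, then TTTCC or TTCCC. The Cxcl2 window is chr5:90903649-90903948 on the plus strand, that of Marco chr1:120504975-120505274 on the minus strand, that of Lcn2 chr2:32387690-32387989 on the minus strand and that of Pim2 chrX:7878056-7878355 on the plus strand.
Cxcl2: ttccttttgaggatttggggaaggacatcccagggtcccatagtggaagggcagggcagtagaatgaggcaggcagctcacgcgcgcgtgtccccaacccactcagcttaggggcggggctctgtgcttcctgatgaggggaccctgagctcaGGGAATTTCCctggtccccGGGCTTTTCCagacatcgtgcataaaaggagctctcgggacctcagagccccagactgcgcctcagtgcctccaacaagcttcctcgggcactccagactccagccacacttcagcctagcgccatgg
Marco: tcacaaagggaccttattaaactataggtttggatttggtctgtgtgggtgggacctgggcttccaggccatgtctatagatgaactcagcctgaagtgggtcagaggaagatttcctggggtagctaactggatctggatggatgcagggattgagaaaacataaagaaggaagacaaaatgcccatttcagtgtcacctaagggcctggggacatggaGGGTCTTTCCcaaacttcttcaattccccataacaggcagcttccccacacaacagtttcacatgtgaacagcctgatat
Lcn2: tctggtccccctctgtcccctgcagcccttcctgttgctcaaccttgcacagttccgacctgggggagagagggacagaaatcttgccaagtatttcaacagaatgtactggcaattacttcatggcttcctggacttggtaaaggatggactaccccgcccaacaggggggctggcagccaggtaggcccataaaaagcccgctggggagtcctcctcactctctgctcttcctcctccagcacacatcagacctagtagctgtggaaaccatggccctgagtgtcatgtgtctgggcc
Pim2: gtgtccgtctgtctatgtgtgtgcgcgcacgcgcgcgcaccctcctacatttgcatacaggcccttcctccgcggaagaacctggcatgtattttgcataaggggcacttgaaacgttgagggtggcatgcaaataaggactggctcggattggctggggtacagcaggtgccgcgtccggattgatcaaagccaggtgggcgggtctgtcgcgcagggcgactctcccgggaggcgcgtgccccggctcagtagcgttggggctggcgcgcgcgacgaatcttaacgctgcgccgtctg
The Cxcl2 window held 2 matches, GGGAATTTCC and GGGCTTTTCC, which began 97 and 78 bases before the start, and the Marco window held GGGTCTTTCC, which began 30 bases before it. The windows of Lcn2 and Pim2 held none of these letters. Of the 14 genes, 13 had a window and 2 of the 13 held a match. Either form of the motif was present in 1063 of 32851 windows (3.24%), in 429 of the 9633 tested genes with a window (4.45%), in 30 of 397 genes that rose (7.56%) and in 119 of 2512 that fell (4.74%). A match is a description of the letters and not of a bound site.

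The 14 genes with the largest decreases encode regulators of G protein and small GTPase signalling, proteins of DNA synthesis and the cytoskeleton, enzymes, and surface or secreted proteins. Rgs2, a GTPase-activating protein that shortens G protein signals, ranged from 0.627 to 10.7 CPM (median 5.29) with P3C and from 79.9 to 385 CPM (median 184) without. Its log2 fold change was -5.21 ± 0.35 (SE, limma adjusted p = 1.03e-36). Rgs7bp, which anchors related regulators at the membrane, had values of 0 to 4.92 CPM with P3C (median 0.349) and 10.5 to 224 CPM without (median 51.9), a log2 fold change of -4.74 ± 0.51 (SE, limma adjusted p = 1.59e-16). Rasgrp3, an exchange factor that activates Ras, had values of 0 to 12.4 CPM with P3C (median 1.68) and 41.3 to 237 CPM without (median 80.7), a log2 fold change of -4.92 ± 0.41 (SE, limma adjusted p = 5.52e-26). Arhgap19, another GTPase-activating protein, had values of 1.31 to 19.3 CPM with P3C (median 5.54) and 48.7 to 301 CPM without (median 187), a log2 fold change of -4.71 ± 0.32 (SE, limma adjusted p = 2.72e-36). Htr2b, a serotonin receptor, had values of 0 to 2.00 CPM with P3C (median 0.648) and 8.30 to 116 CPM without (median 48.9), a log2 fold change of -4.83 ± 0.47 (SE, limma adjusted p = 1.01e-19). In Rgs2, Htr2b and Arhgap19 each culture of the second plate lay below each of the first, and the test of the difference between plates passed the threshold in these 3 genes (log2 response on the first plate minus the second of 2.33, 2.60 and 2.84).

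Dut, which clears dUTP before DNA synthesis, had values of 0 to 8.36 CPM with P3C (median 3.33) and 13.2 to 222 CPM without (median 85.2), a log2 fold change of -4.74 ± 0.39 (SE, limma adjusted p = 2.43e-26). Stmn1, a protein that destabilises microtubules, had values of 0.416 to 5.79 CPM with P3C (median 3.12) and 8.92 to 666 CPM without (median 71.1), a log2 fold change of -4.54 ± 0.54 (SE, limma adjusted p = 3.04e-14). Among the enzymes, Hpgd, which breaks down prostaglandins, ranged from 0 to 6.30 CPM (median 1.80) with P3C and from 33.4 to 179 CPM (median 62.04) without, a log2 fold change of -4.53 ± 0.39 (SE, limma adjusted p = 1.31e-24). Its decrease stood beside the increase of the prostaglandin E2 synthase Ptges in the same 6 cultures. Atp6v0d2, a subunit of the proton pump of lysosomes, ranged from 0.979 to 12.8 CPM (median 4.01) with P3C and from 35.5 to 358 CPM (median 184) without, a log2 fold change of -5.02 ± 0.42 (SE, limma adjusted p = 7.85e-26). St6gal1, a sialyltransferase, had values of 0.416 to 11.04 CPM with P3C (median 2.91) and 34.9 to 229 CPM without (median 91.5), a log2 fold change of -4.62 ± 0.31 (SE, limma adjusted p = 8.46e-36). Hacd4, an enzyme of fatty acid elongation, had values of 0.326 to 47.6 CPM with P3C (median 4.95) and 49.7 to 411 CPM without (median 122), a log2 fold change of -4.47 ± 0.35 (SE, limma adjusted p = 9.37e-29), with replicate 3 the highest P3C culture and close to the lowest untreated one.

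Havcr2, which encodes the receptor TIM-3, ranged from 0.326 to 11.2 CPM (median 2.84) with P3C and from 34.9 to 126 CPM (median 86.9) without, a log2 fold change of -4.41 ± 0.25 (SE, limma adjusted p = 9.09e-46). Rnase4, a secreted ribonuclease, had values of 2.50 to 15.2 CPM with P3C (median 5.55) and 84.4 to 284 CPM without (median 179), a log2 fold change of -4.45 ± 0.30 (SE, limma adjusted p = 1.9e-36). Serpinb6b, a protease inhibitor, had values of 0.627 to 12.3 CPM with P3C (median 3.97) and 38.3 to 200.3 CPM without (median 91.8), a log2 fold change of -4.34 ± 0.38 (SE, limma adjusted p = 4.17e-24). As with the increases, the weakest response among the cultures was often that of replicate 3, which held the highest P3C level of Havcr2, Rnase4, Hacd4, Atp6v0d2, Arhgap19, Rasgrp3, Htr2b and St6gal1. All 28 genes with the largest increases and decreases kept their direction and their call under every alternative run. These runs included those without the P3C cultures of either plate. The choice of genes by size, lack of overlap and same direction on both plates favoured this, so it is not separate support.

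**Figure D2:**
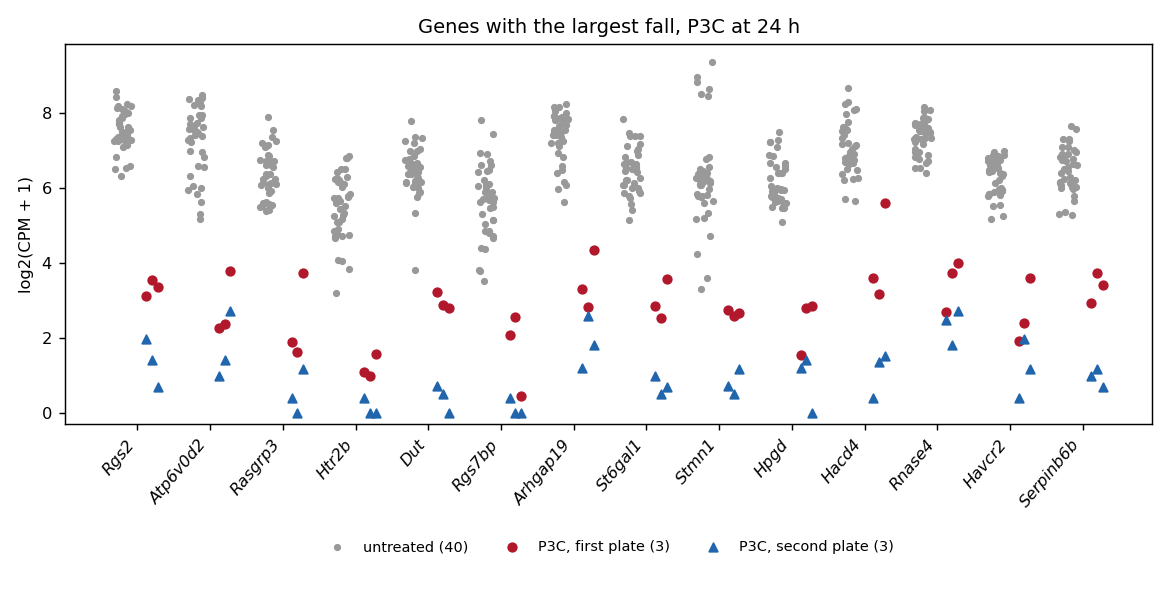
Levels of the 14 genes with the largest decreases, as log2(CPM + 1), in each of the 40 untreated cultures (grey), the 3 P3C cultures of the first plate (red circles) and the 3 of the second plate (blue triangles). In all 14 genes the highest P3C culture lies below the lowest untreated culture, as the choice of genes required, and in most genes the second plate lies lower than the first.

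Lists of genes by role showed where the increases and decreases fell. The list counts below are read against the shares of all genes tested, 4.05% higher and 23.7% lower, and each list's median log2 fold change against -0.41. List counts of another run are read against all genes of that run. Without the second plate's P3C cultures 799 rose and 1945 fell of 14195, and without the first plate's 786 and 4102 of 14205. With the library pool as a factor 693 rose and 1857 fell of 14208, and after rescaling 789 and 2711 of 14255.

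Of the 27 tested genes of TLR recognition and the MyD88 pathway, 6 rose and 7 fell (median -0.23). Both chains of the receptor for P3C were among those that rose. Tlr1 ranged from 44.2 to 156 CPM (median 99.2) with P3C and from 0.965 to 41.8 CPM (median 21.8) without, a log2 fold change of 2.23 ± 0.35 (SE, limma adjusted p = 1.01e-08). Tlr2 ranged from 70.4 to 105 CPM (median 87.5) with P3C and from 8.84 to 66.8 CPM (median 34.7) without, a log2 fold change of 1.47 ± 0.32 (SE, limma adjusted p = 4.28e-05). The P3C cultures lay above all untreated cultures for both genes. Myd88, the shared adaptor, rose by a log2 fold change of 1.16 ± 0.24 (SE, limma adjusted p = 2.35e-05), Ticam2, which encodes TRAM, by 1.66 ± 0.41 (SE, limma adjusted p = 0.000326), and Cd14, the co-receptor that hands over lipid ligands, by 2.73 ± 0.41 (SE, limma adjusted p = 2.42e-09). The largest change in the list was that of Irak3, an IRAK family member that restrains this pathway. It ranged from 106 to 314 CPM (median 204) with P3C and from 4.29 to 26.5 CPM (median 11.5) without, a log2 fold change of 4.12 ± 0.32 (SE, limma adjusted p = 1.11e-28). Of the receptors for nucleic acids inside the cell, Tlr13, Tlr7 and Tlr3 fell, Tlr8 was not called (-0.15 ± 0.35 (SE, limma adjusted p = 0.765)) and Tlr9 was below the filter on low values. Tlr13, a sensor of bacterial ribosomal RNA, fell, with a log2 fold change of -2.51 ± 0.21 (SE, limma adjusted p = 2.94e-25), Tlr7, a sensor of single-stranded RNA, with -2.04 ± 0.26 (SE, limma adjusted p = 4.12e-12), and Tlr3, a sensor of double-stranded RNA, with -1.81 ± 0.44 (SE, limma adjusted p = 0.000279). The number of the list that fell was 3 without the second plate's P3C cultures and 3 with the library pool as a factor. Tlr4, the LPS receptor, did not reach the required size (-0.95 ± 0.34 (SE, limma adjusted p = 0.0185)).

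Of 27 tested genes of NF-kB and its inhibitors, 15 rose and 0 fell (median 1.09), and the counts were 15 and 0 without the second plate's P3C cultures. Several members that rose are inhibitors or targets of NF-kB. Nfkbia, the inhibitor IkB-alpha, ranged from 499 to 909 CPM (median 761) with P3C and from 53.001 to 198 CPM (median 116) without, a log2 fold change of 2.66 ± 0.22 (SE, limma adjusted p = 1.48e-26). Nfkbiz, a nuclear IkB protein, had values of 44.2 to 167 CPM with P3C (median 70.4) and 0.415 to 14.04 CPM without (median 5.13), a log2 fold change of 3.65 ± 0.40 (SE, limma adjusted p = 7.34e-16). Zc3h12a, an RNase that destroys cytokine mRNAs, had values of 74.9 to 252 CPM with P3C (median 119) and 1.96 to 31.5 CPM without (median 13.5), a log2 fold change of 3.12 ± 0.33 (SE, limma adjusted p = 2.3e-17). None of the 3 overlapped with the untreated cultures. The subunit gene Nfkb1 (0.77 ± 0.28 (SE, limma adjusted p = 0.0186)) and the deubiquitinase gene Tnfaip3 (0.99 ± 0.46 (SE, limma adjusted p = 0.0801)) did not meet the call. Of 26 MAP kinase phosphatase and AP-1 genes, 6 rose and 5 fell (median -0.42), and 3 fell without the second plate's P3C cultures. The AP-1 members Fosl1 and Batf rose by 2.98 ± 0.51 (SE, limma adjusted p = 1.59e-07) and 2.67 ± 0.32 (SE, limma adjusted p = 1.07e-13), while the growth factor-induced Egr2 and the phosphatase Dusp7 changed by -3.50 ± 0.74 (SE, limma adjusted p = 2.47e-05) and -2.61 ± 0.38 (SE, limma adjusted p = 4.53e-10). Fosl1 was listed at 0 in replicate 5 and reached 122 CPM in replicate 6, so its P3C cultures spread widely.

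Of 21 tested cytokine genes, 10 rose and 3 fell (median 0.61). Il1b, which encodes interleukin-1 beta, took values of 541, 336, 28.4, 679, 678 and 972 CPM in replicates 1 to 6, against 0 to 65.3 CPM (median 9.22) without P3C. Replicate 3 alone overlapped with the untreated cultures, and the other 5 were far above them. Il1a likewise stood at 1341, 1208, 102, 525, 829.7 and 1208 CPM in replicates 1 to 6, against 0 to 192 CPM (median 32.3) in untreated cultures, a log2 fold change of 4.33 ± 0.59 (SE, limma adjusted p = 5.08e-11). Tnf, the central early cytokine of macrophages, stood at 426, 628, 534, 2457, 1550.3 and 1285 CPM in replicates 1 to 6, above the untreated range of 26.2 to 409.7 CPM, and its level was higher in each culture of the second plate. Il6 had values of 2.30 to 31.3 CPM with P3C (median 17.8) and 0 to 7.12 CPM without (median 0.631), a log2 fold change of 2.86 ± 0.29 (SE, limma adjusted p = 5.94e-18). Il10, an anti-inflammatory cytokine, had values of 0 to 48.3 CPM with P3C (median 6.97) and 0 to 6.96 CPM without (median 0), a log2 fold change of 2.53 ± 0.35 (SE, limma adjusted p = 1.31e-10), and was listed at 0 in replicate 6. Il12b, a subunit of interleukins 12 and 23, rose by a log2 fold change of 1.39 ± 0.22 (SE, limma adjusted p = 1.94e-08), with values up to 0.830 CPM on the first plate and 3.33 to 12.5 CPM on the second. Members that fell were Il15, Il16 and Il18. Without the second plate's P3C cultures, 7 cytokine genes rose and 1 fell.

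Among 13 tested CXC and CX3C chemokines, 6 rose and 1 fell (median 0.91). Of the members that rose, Cxcl1, Cxcl2, Cxcl3 and Cxcl5 attract neutrophils. The other 2 were Cxcl16 (1.87 ± 0.24 (SE, limma adjusted p = 2.26e-12)) and Pf4 (1.74 ± 0.33 (SE, limma adjusted p = 3.78e-06)). Besides Cxcl2, Cxcl1 had values of 56.7 to 283 CPM with P3C (median 193) and 0 to 78.3 CPM without (median 4.58), a log2 fold change of 4.55 ± 0.67 (SE, limma adjusted p = 1.15e-09). Cxcl3 had values of 7.56 to 97.3 CPM with P3C (median 51.4) and 0 to 11.5 CPM without (median 0.422), a log2 fold change of 4.41 ± 0.45 (SE, limma adjusted p = 4.68e-18). Cxcl5 had values of 0.636 to 47.6 CPM with P3C (median 13.7) and 0 to 4.59 CPM without (median 0), a log2 fold change of 3.52 ± 0.31 (SE, limma adjusted p = 7.62e-23). For each of these 3 genes the highest untreated culture lay above the lowest P3C culture. Cxcl10, a chemokine induced by interferon, was not called (-0.20 ± 0.55 (SE, limma adjusted p = 0.803)). Of 10 tested CC chemokines, 4 rose and 0 fell (median 0.12). Ccl3, which attracts monocytes and T cells, ranged from 225 to 489 CPM (median 407) with P3C and from 11.03 to 91.6 CPM (median 32.3) without, a log2 fold change of 3.43 ± 0.32 (SE, limma adjusted p = 1.7e-21). Ccl9, a chemokine of mouse myeloid cells, ranged from 409 to 773 CPM (median 498) with P3C and from 33.8 to 97.3 CPM (median 55.9) without, a log2 fold change of 3.22 ± 0.21 (SE, limma adjusted p = 3.17e-39). These 2 genes rose to like levels on both plates. The other 2, Ccl4 and Ccl5, depended on the second plate. Ccl5 stood at 706, 1133, 450.3, 1341, 5801 and 4245 CPM in replicates 1 to 6, against 42.1 to 1279 CPM without P3C, and Ccl4 at 171, 124, 76.5, 846, 902 and 816 CPM in replicates 1 to 6, against 21.3 to 249 CPM. Without the second plate's P3C cultures their log2 fold changes were 1.01 and 0.32, neither of them called.

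Of 26 genes of acute-phase and antimicrobial proteins only 12 were above the filter on low values, and 9 of these rose and 0 fell (median 2.68). Because a gene can pass the filter through the group in which it is high, this count says nothing about the other 14. Saa3, an acute-phase protein made by macrophages, stood at 559, 829, 97.1, 4033, 9654 and 11187 CPM in replicates 1 to 6, against 4.92 to 272 CPM without P3C. Its log2 fold change was 4.98 ± 0.47 (SE, limma adjusted p = 9.31e-21), and the test of the difference between plates passed the threshold (4.33 on the first, 8.01 on the second, limma adjusted p = 0.0308). C3, the central complement protein, ranged from 64.6 to 241 CPM (median 172) with P3C and from 0.184 to 41.8 CPM (median 5.84) without, a log2 fold change of 4.26 ± 0.48 (SE, limma adjusted p = 2.68e-15). Chil1, a chitinase-like protein, had values of 3.33 to 75.4 CPM with P3C (median 38.2) and 0 to 5.66 CPM without (median 0), a log2 fold change of 4.37 ± 0.33 (SE, limma adjusted p = 2e-29). Of 28 lectin and innate cell-surface receptor genes, 16 rose and 5 fell (median 1.61). Clec4e, which encodes Mincle, a receptor for mycobacterial glycolipids, ranged from 117 to 843 CPM (median 521) with P3C and from 3.09 to 75.8 CPM (median 23.5) without, a log2 fold change of 4.17 ± 0.44 (SE, limma adjusted p = 2.44e-17). The members that fell were Mrc1, Trem2, Clec7a, Scarb1 and Stab1, of which Mrc1, Scarb1 and Stab1 encode receptors for the uptake of ligands.

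**Figure D3:**
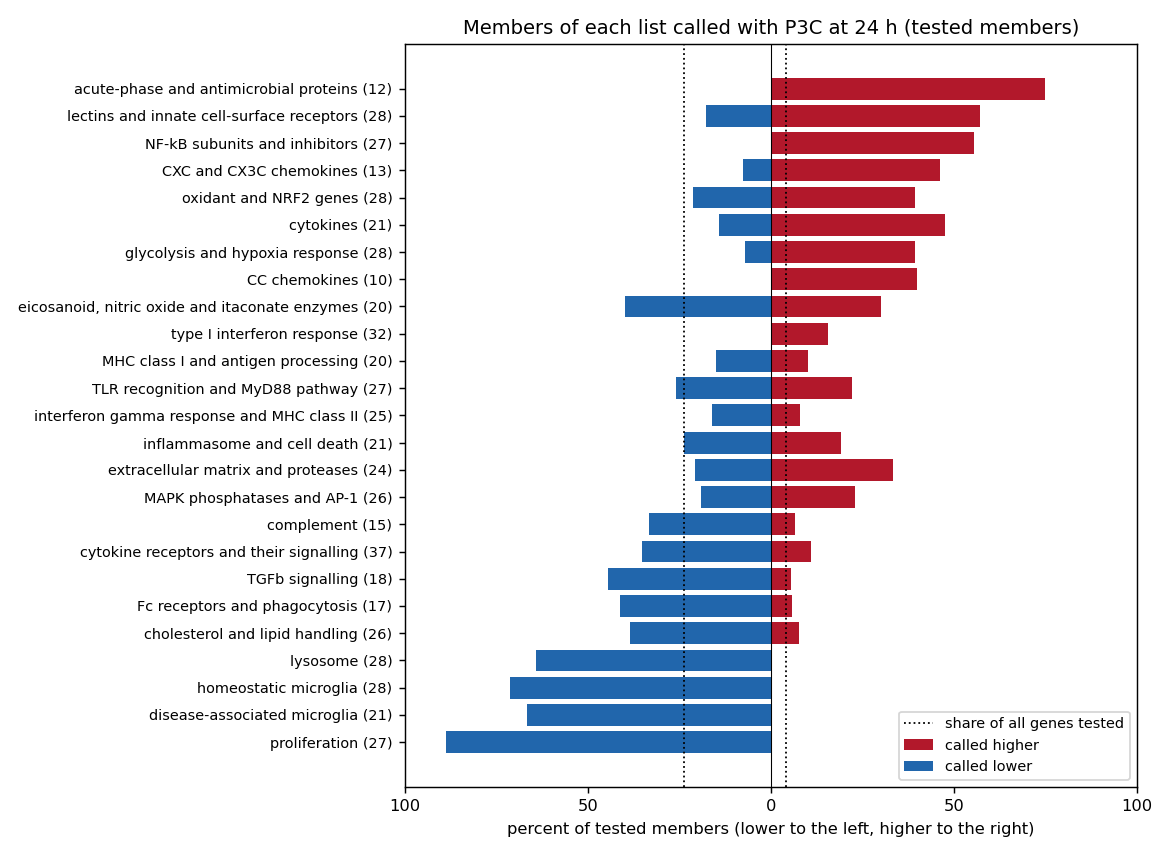
Share of the tested members of each gene list that rose (right) or fell (left) with P3C at 24 h, in percent, with dotted lines at the shares of all genes tested (4.05% and 23.7%). NF-kB, acute-phase and lectin lists have the largest shares that rose, and proliferation, homeostatic and disease-associated lists the largest shares that fell.

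Of 20 genes of eicosanoid, nitric oxide and itaconate metabolism, 6 rose and 8 fell (median 0.12). Ptgs2 and Ptges, which make prostaglandins, rose, as did Gch1, Ass1, Slc7a2 and Irg1, which act in nitric oxide or itaconate metabolism. All 8 that fell were genes of eicosanoid metabolism. Ptgs2, the inducible cyclooxygenase, had values of 2.82 to 98.7 CPM with P3C (median 34.7) and 0 to 9.15 CPM without (median 1.08), a log2 fold change of 3.85 ± 0.40 (SE, limma adjusted p = 1.08e-17). Ptgs1, the constitutive form, had values of 0 to 8.58 CPM with P3C (median 2.07) and 4.18 to 71.1 CPM without (median 38.7), a log2 fold change of -3.51 ± 0.32 (SE, limma adjusted p = 1.52e-21). Other members that fell were Ltc4s, Tbxas1, Hpgds, Lta4h, Alox5 and Alox5ap, which encode enzymes or helpers of leukotriene, thromboxane and prostaglandin D2 synthesis. Irg1, which makes itaconate, ranged from 98.7 to 192 CPM (median 128) with P3C and from 1.43 to 101 CPM (median 9.21) without, a log2 fold change of 3.31 ± 0.43 (SE, limma adjusted p = 4.99e-12). Nos2, the inducible nitric oxide synthase, had values of 0.653 to 3.13 CPM with P3C (median 0.935) and 0 to 21.98 CPM without (median 2.64) and was not called (-1.09 ± 0.49 (SE, limma adjusted p = 0.0701)).

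Of 28 oxidant and NRF2 genes, 11 rose and 6 fell (median 0.70). Slc7a11, the cystine importer, ranged from 149 to 1024 CPM (median 353) with P3C and from 3.12 to 54.6 CPM (median 23.003) without, a log2 fold change of 4.14 ± 0.43 (SE, limma adjusted p = 6.03e-18). Sod2, the mitochondrial superoxide dismutase, ranged from 1400.2 to 2026 CPM (median 1851) with P3C and from 70.4 to 268 CPM (median 111) without, a log2 fold change of 3.82 ± 0.19 (SE, limma adjusted p = 2.39e-56). Rac2, a GTPase of the phagocyte oxidase, ranged from 1517 to 5542 CPM (median 3565) with P3C and from 435 to 1123 CPM (median 601) without, a log2 fold change of 2.35 ± 0.14 (SE, limma adjusted p = 5.84e-41). The P3C cultures of these 3 genes were clear of all untreated cultures. The metallothionein gene Mt1 fell, with a log2 fold change of -2.27 ± 0.26 (SE, limma adjusted p = 8.67e-15). Of 28 glycolysis and hypoxia genes, 11 rose and 2 fell (median 0.48). The list's members that rose included Adm, Ndrg1 (2.04 ± 0.45 (SE, limma adjusted p = 5.52e-05)), Slc2a1, Hif1a and Vegfa, and those that fell were the glucose transporter Slc2a3 (-2.65 ± 0.44 (SE, limma adjusted p = 5.01e-08)) and the phosphofructokinase Pfkm (-2.47 ± 0.42 (SE, limma adjusted p = 1.38e-07)). The median over this list was 0.55 to 1.18 in the cultures of the first plate and 0.23 to 0.32 in those of the second. Of 24 genes of the extracellular matrix and its proteases, 8 rose and 5 fell (median -0.26). The number that fell was 3 without the second plate's P3C cultures. With Mmp9, Mmp14, a membrane-bound metalloprotease, rose by 4.19 ± 0.39 (SE, limma adjusted p = 5.41e-21) and Lox, which cross-links collagen, by 3.04 ± 0.67 (SE, limma adjusted p = 5.97e-05). Mmp12, the macrophage elastase, fell, with a log2 fold change of -2.71 ± 0.54 (SE, limma adjusted p = 9e-06). Lox was not called without the first plate's P3C cultures (1.97) and stood at 0.833 CPM in replicate 5.

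Of 32 type I interferon genes tested, 5 rose with P3C and 0 fell (median 0.05). Over all genes tested 4.05% rose and 23.7% fell (median -0.41). Without the second plate's P3C cultures 0 rose and 2 fell. Without the first plate's P3C cultures 11 rose and 2 fell. After rescaling 8 rose, and with the library pool as a factor 9. The increases rested on replicates 5 and 6, the 2 cultures in middle wells. The median log2 difference over the list was 1.40 and 1.00 in these 2 cultures and -0.25 to 0.14 in the other 4. Zbp1, a sensor of nucleic acids induced by interferon, stood at 15.4, 23.3, 15.6, 17.3, 135 and 187 CPM in replicates 1 to 6, against 4.25 to 53.8 CPM without P3C. Isg15, a ubiquitin-like protein, stood at 12.9, 10.9, 10.8, 55.1, 244 and 102 CPM in replicates 1 to 6, against 2.76 to 68.04 CPM. Ifit3, a restriction factor of viral RNA, stood at 92.7, 111, 105, 16.97, 49.9 and 18.8 CPM in replicates 1 to 6 and was not called (-0.81 ± 0.50 (SE, limma adjusted p = 0.198)), and the values of replicates 5 and 6 were not above those of the first plate. Leaving out replicate 5 ended the calls of Zbp1 (0.80), Oasl1 (1.07) and Ifi35 (0.96), and leaving out replicate 6 those of Zbp1 (0.71) and Oasl1 (0.78). Irf7, the master regulator of type I interferon genes, had values of 44.1 to 168 CPM with P3C (median 110.3) and 4.95 to 188 CPM without (median 62.9) and was not called (1.11 ± 0.53 (SE, limma adjusted p = 0.0873)). Of 25 interferon gamma and MHC class II genes, 2 rose and 4 fell (median -0.25). With the library pool as a factor 4 rose and 2 fell. The called members included the feedback inhibitor Socs1, at 57.3, 57.2, 7.71, 32.3, 151 and 359.8 CPM in replicates 1 to 6, with a log2 fold change of 2.73 ± 0.41 (SE, limma adjusted p = 1.49e-09), and the class II chaperone H2-DMb1, which fell, with a log2 fold change of -2.22 ± 0.32 (SE, limma adjusted p = 6.04e-10). Of 20 genes of MHC class I and antigen processing, 2 rose and 3 fell (median -0.14), and 0 fell with the library pool as a factor. H2-Q7 rose by 1.54 ± 0.33 (SE, limma adjusted p = 3.89e-05), but it shares near-identical copies, so its reads are uncertain.

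Many genes typical of resting microglia fell. None of the 28 tested homeostatic genes rose and 20 fell (median -1.99), with 17 that fell without the second plate's P3C cultures. Cx3cr1, the fractalkine receptor, ranged from 28.7 to 54.1 CPM (median 40.3) with P3C and from 33.1 to 529 CPM (median 379.9) without, a log2 fold change of -3.07 ± 0.41 (SE, limma adjusted p = 1.62e-11). Tmem119, a marker of resident microglia, had values of 0 to 4.74 CPM with P3C (median 0.860) and 1.63 to 64.7 CPM without (median 14.6), a log2 fold change of -2.82 ± 0.51 (SE, limma adjusted p = 7.71e-07). P2ry12, the ADP receptor, was low before stimulation, at 0 to 1.04 CPM with P3C (median 0) and 0 to 12.8 CPM without (median 3.49), a log2 fold change of -1.99 ± 0.44 (SE, limma adjusted p = 4.99e-05). For each of these 3 markers the lowest untreated culture lay within the P3C range. The related receptor P2ry13 had values of 1.25 to 8.82 CPM with P3C (median 4.00) and 21.4 to 225 CPM without (median 78.04), a log2 fold change of -4.08 ± 0.37 (SE, limma adjusted p = 1.89e-22), and the nucleotidase Entpd1 had 0 to 10.2 CPM with P3C (median 2.49) and 24.7 to 136 CPM without (median 54.3), a log2 fold change of -4.06 ± 0.30 (SE, limma adjusted p = 1.1e-30). Fcrls (-3.73 ± 0.49 (SE, limma adjusted p = 6.46e-12)), an Fc receptor-like marker, fell as well, and none of these 3 overlapped.

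Genes of the disease-associated state fell in the same cultures, 14 of 21 with 0 that rose (median -2.42), and 13 fell without the second plate's P3C cultures. Trem2, the lipid receptor on which that state depends, ranged from 22.6 to 305 CPM (median 77.5) with P3C and from 585 to 1274 CPM (median 807) without, a log2 fold change of -3.30 ± 0.17 (SE, limma adjusted p = 1.18e-52). Spp1, which encodes osteopontin, ranged from 18.3 to 97.8 CPM (median 40.9) with P3C and from 168 to 2607 CPM (median 674) without, a log2 fold change of -4.15 ± 0.51 (SE, limma adjusted p = 3.11e-13). Neither overlapped with the untreated cultures. Axl, a receptor for the uptake of dying cells, fell, with a log2 fold change of -3.44 ± 0.38 (SE, limma adjusted p = 1.28e-15), and its ligand Gas6 with -4.19 ± 0.25 (SE, limma adjusted p = 2.44e-42). Cd9, a tetraspanin, fell, with a log2 fold change of -3.65 ± 0.59 (SE, limma adjusted p = 2.67e-08), and Timp2, an inhibitor of metalloproteases, with -3.56 ± 0.20 (SE, limma adjusted p = 3.89e-48).

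Of 17 Fc receptor and phagocytosis genes 1 rose and 7 fell (median -0.74), with the kinase Syk as the member that rose. Of 15 complement genes 1 rose and 5 fell (median -0.53). This list leaves out the complement genes C3 and Cfb, which were counted with the acute-phase proteins and rose by 4.26 and 2.98. C1qb, a chain of the first component, ranged from 138 to 491 CPM (median 381) with P3C and from 983 to 4192 CPM (median 1376) without, a log2 fold change of -2.20 ± 0.24 (SE, limma adjusted p = 5.72e-16). C1qc, another chain, fell, with a log2 fold change of -2.97 ± 0.35 (SE, limma adjusted p = 1.28e-14), and C2 with -2.77 ± 0.34 (SE, limma adjusted p = 4.22e-13). Of 28 lysosomal genes, 0 rose and 18 fell (median -1.32). Cd68, a lysosomal glycoprotein of macrophages, stood at 612, 621, 1507, 675, 526 and 673 CPM in replicates 1 to 6, against 2231 to 6463 CPM without P3C, with replicate 3 apart from the other 5. The acid lipase Lipa changed by -2.21 ± 0.29 (SE, limma adjusted p = 7.87e-12) and the galactosidase Gla by -2.20 ± 0.20 (SE, limma adjusted p = 1.94e-22). Of 26 genes of cholesterol and lipid handling 2 rose and 10 fell (median -0.75), including the lipoprotein receptor Lrp1 (-3.35 ± 0.24 (SE, limma adjusted p = 5.2e-32)), the sterol enzymes Fdft1 (-2.31 ± 0.31 (SE, limma adjusted p = 1.88e-11)) and Cyp51 (-2.04 ± 0.26 (SE, limma adjusted p = 1.07e-12)) and the nuclear receptor Pparg (-2.15 ± 0.41 (SE, limma adjusted p = 3.49e-06)).

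Of 37 cytokine receptors and their signalling genes 4 rose and 13 fell (median -0.60). These counts were 2 and 8 without the second plate's P3C cultures, and 7 fell with the library pool as a factor. Socs3, a feedback inhibitor of cytokine signals, ranged from 75.3 to 376 CPM (median 304) with P3C and from 0 to 61.8 CPM (median 11.8) without, a log2 fold change of 4.27 ± 0.45 (SE, limma adjusted p = 1.59e-17). The chemokine receptor Cxcr4 fell, with a log2 fold change of -3.53 ± 0.43 (SE, limma adjusted p = 1.02e-13), and Tgfbr1, a receptor for TGF-beta, with -2.05 ± 0.30 (SE, limma adjusted p = 1.62e-09). Of 18 TGF-beta pathway genes 1 rose and 8 fell (median -0.73), and 4 fell without the second plate's P3C cultures, where fewer of all genes fell as well. Id1, a target of BMP and TGF-beta signals, fell, with a log2 fold change of -2.29 ± 0.24 (SE, limma adjusted p = 9.64e-18), the integrin Itgav, which activates TGF-beta, with -2.05 ± 0.26 (SE, limma adjusted p = 1.06e-12), the inhibitor Smad7 with -1.80 ± 0.44 (SE, limma adjusted p = 0.000376) and the ligand Bmp2 with -2.45 ± 0.61 (SE, limma adjusted p = 0.000398). Smad7 (-0.25) and Bmp2 (-1.31) were not called without the second plate. Of 21 inflammasome and cell death genes 4 rose and 5 fell (median -0.25), and 2 and 3 without the second plate's P3C cultures. Nlrp3, the sensor of the inflammasome that processes interleukin-1 beta, ranged from 65.8 to 222 CPM (median 102) with P3C and from 2.44 to 55.7 CPM (median 31.02) without, a log2 fold change of 2.32 ± 0.45 (SE, limma adjusted p = 3.86e-06). Aim2, the sensor of DNA, fell, with a log2 fold change of -2.11 ± 0.53 (SE, limma adjusted p = 0.000553) and the pro-apoptotic Bcl2l11 with -2.20 ± 0.35 (SE, limma adjusted p = 1.04e-08). Bcl2a1a, a survival gene with near-identical copies that make its reads uncertain, rose by 3.82 ± 0.44 (SE, limma adjusted p = 5.02e-15).

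Proliferation genes gave the largest share that fell of all lists, 24 of 27 with 0 that rose (median -2.99), and 20 fell without the second plate's P3C cultures. Ccnb2, a mitotic cyclin, had values of 0.371 to 2.91 CPM with P3C (median 1.16) and 1.38 to 181 CPM without (median 73.6), a log2 fold change of -4.64 ± 0.66 (SE, limma adjusted p = 2.8e-10). Ube2c, the ubiquitin carrier of mitotic exit, had values of 0 to 3.71 CPM with P3C (median 1.49) and 0.442 to 102 CPM without (median 53.4), a log2 fold change of -4.26 ± 0.57 (SE, limma adjusted p = 1.58e-11). Plk1, a mitotic kinase, fell, with a log2 fold change of -4.09 ± 0.60 (SE, limma adjusted p = 7.55e-10) and Mcm7, a subunit of the replicative helicase, with -4.06 ± 0.55 (SE, limma adjusted p = 2.58e-11). The median untreated culture was far above the P3C cultures in these 4 genes, but the lowest untreated culture lay within the P3C range.

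The response was then compared between the 2 plates that held both P3C and untreated cultures, over 10306 genes. On the first plate 356 genes rose (3.45%) and 742 fell (7.2%), and on the second 473 rose (4.59%) and 2772 fell (26.9%). The test of the difference called 426 genes (4.13%), of which 408 (3.96%) had a higher log2 response on the first plate and 18 (0.175%) a higher one on the second. That count rested on single cultures. Leaving out replicates 1, 2 or 3 of the first plate gave 214, 254 and 141 genes, and leaving out replicate 4 of the second gave 942. Among the genes called over all 6 cultures, the difference was larger in those that fell. Both sets were called from the same P3C cultures whose plates are compared here. Among 521 genes that rose over all 6 cultures the median log2 fold change was 1.56 on the first plate and 1.79 on the second, and 16 were called different. Among 3076 that fell the medians were -1.01 and -2.29, and 329 were called different. Genes whose plates differed included Trem2 (-2.33 on the first plate, -4.58 on the second), Axl (-2.60 and -5.05), Entpd1 (-2.97 and -5.66), Id1 (-1.02 and -3.54) and Ccl5 (0.67 and 4.06). On the second plate the P3C cultures had 1.60 to 3.06 M reads and the untreated cultures 4.73 to 5.69 M reads, and they were sequenced in different pools. On the first plate the P3C wells were edge wells and 8 of the 9 untreated wells were not. Depth, pool, well position and response cannot be told apart within these plates. The Source ID of the P3C cultures also differed between the plates, so that source and plate cannot be told apart in this comparison.

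**Figure D4:**
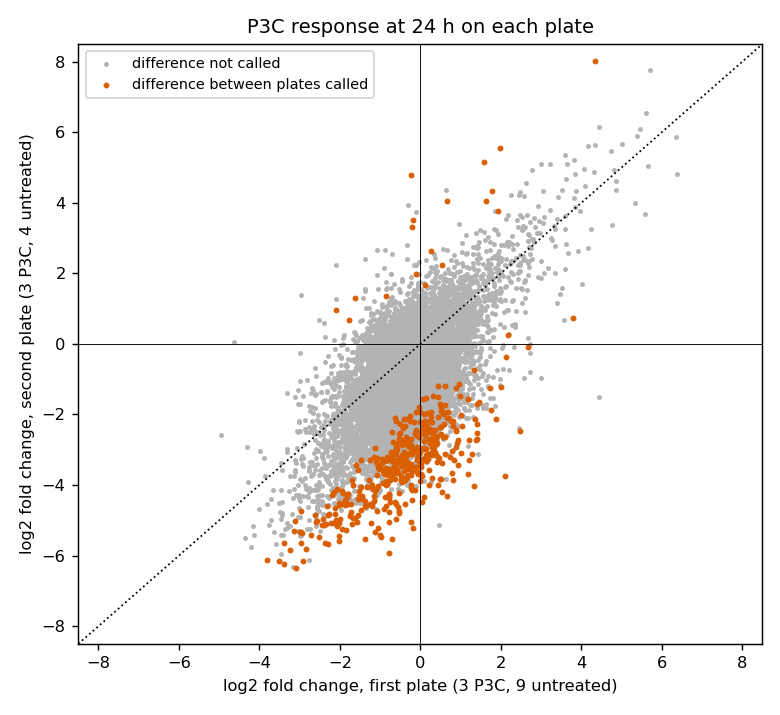
Log2 fold change of P3C against untreated cultures of the same plate, first plate on the horizontal axis (3 against 9 cultures) and second plate on the vertical axis (3 against 4), 1 point per gene of 10306. The 426 genes called different between the plates are orange, and most of them lie below the diagonal, with a lower value on the second plate.

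P3C was next compared with LPS_hi, which reaches the same NF-kB pathway from TLR4. The doses differ, at 0.001 and 0.0001 ug/ul, so the values stand side by side at 1 dose each, and both groups share the 40 untreated cultures. Tested directly, 458 genes were higher with P3C (3.22%) and 1788 lower (12.6%) of 14208, and against untreated cultures LPS_hi raised 886 (6.24%) and lowered 1850 (13%). Only 1 LPS_hi culture stood on the first P3C plate and 2 on the second, and on these plates alone the number of genes called fell from 2246 (15.8%) to 491. Of 12733 genes tested there, 121 were higher with P3C and 370 lower. With the plate as a factor 374 of 14208 were higher and 946 lower.

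The type I interferon genes differed between the ligands. All 32 were lower with P3C than with LPS_hi, 32 with the plate as a factor and 29 on the P3C plates alone, and LPS_hi raised all 32 over untreated cultures. All 20 genes of MHC class I and antigen processing were lower with P3C as well (17 on the P3C plates), as were 18 of 25 interferon gamma and MHC class II genes (15), 7 of 10 CC chemokines (5) and 10 of 21 cytokines (8). Over all genes tested 12.6% were lower with P3C (370 of 12733 on the P3C plates). The largest difference was in Nos2, which ranged from 0.653 to 3.13 CPM (median 0.935) with P3C and from 63.4 to 2055 CPM (median 617) with LPS_hi, a log2 difference of -8.16 ± 0.53 (SE, limma adjusted p = 5.64e-37). Cxcl10 ranged from 0.836 to 33.3 CPM (median 8.81) with P3C and from 39.2 to 872 CPM (median 569.9) with LPS_hi, a log2 difference of -5.95 ± 0.59 (SE, limma adjusted p = 7.44e-19). Cxcl9, its relative induced by interferon gamma, ranged from 0 to 6.37 CPM (median 2.14) with P3C and from 19.2 to 214 CPM (median 159) with LPS_hi, a log2 difference of -5.53 ± 0.44 (SE, limma adjusted p = 1.93e-26). No P3C culture reached the lowest LPS_hi culture for Nos2. Mmp13, a collagenase, was lower at a log2 difference of -5.56 ± 0.49 (SE, limma adjusted p = 4.52e-23) and Ms4a4c, a membrane protein of the MS4A family, at -6.17 ± 0.45 (SE, limma adjusted p = 2.35e-31). The PYHIN family genes Mnda (-5.97 ± 0.54 (SE, limma adjusted p = 6.3e-22)), Pyhin1 (-5.83 ± 0.73 (SE, limma adjusted p = 3e-12)) and Ifi205 (-5.53 ± 0.53 (SE, limma adjusted p = 4.12e-20)), which share similar sequence and so uncertain reads, and the interferon-induced Phf11a (-5.82 ± 0.43 (SE, limma adjusted p = 4.66e-30)) and AA467197 (-5.62 ± 0.39 (SE, limma adjusted p = 7.93e-33)) completed the 10. These 10 kept the call under every alternative run, which their choice as the largest called differences favoured, so it is not separate support.

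The NF-kB list gave 4 genes lower and 1 higher of 27 and the acute-phase list 1 lower and 5 higher of 12. On the P3C plates alone these counts were 0 lower and 0 higher and 1 lower and 2 higher. Il1b (-1.29 ± 0.58 (SE, limma adjusted p = 0.0996)), Tnf (-0.60 ± 0.39 (SE, limma adjusted p = 0.288)), Sod2 (-0.33 ± 0.20 (SE, limma adjusted p = 0.272)), Marco (1.08 ± 0.45 (SE, limma adjusted p = 0.0652)) and Lcn2 (-0.09 ± 0.72 (SE, limma adjusted p = 0.96)) did not pass the test of the difference, which does not show that the ligands act alike on them. Genes higher with P3C were led by Mmp9, which ranged from 64.5 to 202 CPM (median 76.1) with P3C and from 0.201 to 48.1 CPM (median 4.31) with LPS_hi, a log2 difference of 3.92 ± 0.57 (SE, limma adjusted p = 1.52e-09). The NRF2 targets Nqo1 (3.00 ± 0.59 (SE, limma adjusted p = 1.41e-05)), a quinone reductase, and Gsta3 (2.62 ± 0.57 (SE, limma adjusted p = 0.000111)), a glutathione transferase, followed, with the protease inhibitor Slpi (2.82 ± 0.34 (SE, limma adjusted p = 1.53e-13)) and Clec4n (2.74 ± 0.51 (SE, limma adjusted p = 4.11e-06)), which encodes Dectin-2, a receptor for fungal mannans. The kinase Fgr (2.67 ± 0.53 (SE, limma adjusted p = 2e-05)), the serine synthesis enzyme Phgdh (2.54 ± 0.53 (SE, limma adjusted p = 5.97e-05)), the sialoglycoprotein Spn (2.53 ± 0.47 (SE, limma adjusted p = 4.15e-06)), Lox (2.49 ± 0.72 (SE, limma adjusted p = 0.00551)) and the GTPase Rnd3 (2.49 ± 0.50 (SE, limma adjusted p = 3.08e-05)) completed the 10. On the P3C plates alone, 9 of these 10 were no longer called, at log2 differences of 1.02 for Slpi to 2.67 for Lox, and Spn kept the call.

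**Figure D5:**
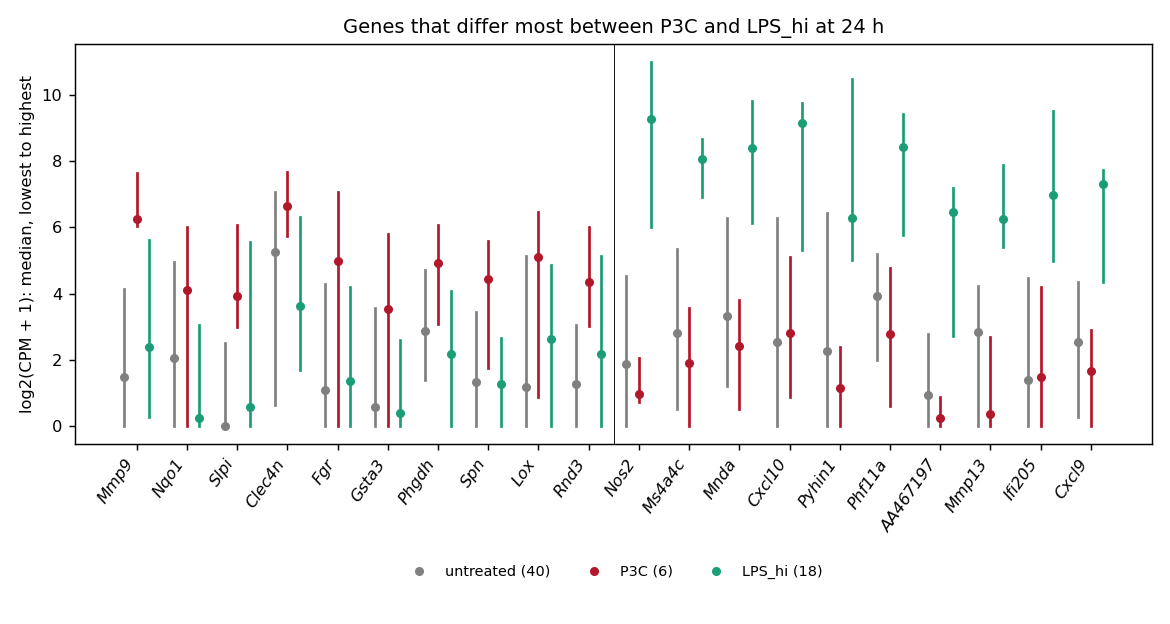
Median (marker) and lowest to highest value (line) of the 10 genes furthest above and the 10 furthest below LPS_hi, as log2(CPM + 1), in 40 untreated, 6 P3C and 18 LPS_hi cultures at 24 h. Of the genes below LPS_hi, Nos2, Cxcl9 and Cxcl10 were not called between P3C and untreated cultures, and Mmp13 was lower with P3C (log2 fold change -1.78). Of those above LPS_hi, Lox spread widely over the P3C cultures and Mmp9 less so.

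After 72 h fewer genes were lower with P3C than at 24 h. Against untreated cultures of 72 h, 797 of 12258 genes were higher with P3C (6.5%) and 477 lower (3.89%), or 10.4% in either direction. Which direction was the more frequent at 72 h depended on the fit, with 739 higher and 1083 lower with the well position as a factor, 789 and 810 with the culture plate and 521 and 619 with the library pool. The log2 response at 72 h exceeded that at 24 h in 1577 (12.9%) and was below it in 119 (0.971%). Of the 576 genes that rose at 24 h, 556 were in this comparison, with a median log2 fold change of 1.55 at 24 h and 1.20 at 72 h, and 282 were called in the same direction at 72 h. Of 3348 genes that fell at 24 h, the median went from -1.54 to -0.24 and 368 were called in the same direction. The 72 h cultures came from other plates, and each group of 72 h carried 1 Source ID in the header. All 6 P3C wells of 72 h lay in the middle of the plate while 15 of 25 untreated wells lay at the edge. Without the second plate's P3C cultures of 24 h the number of genes called fell from 1696 (13.8%) to 1008. Time cannot be told apart from plate and Source ID, and with the library pool as a factor 110 genes were called.

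Several of the strongest increases held. Marco at 72 h ranged from 985 to 1299 CPM (median 1120.5) with P3C and from 4.45 to 86.02 CPM (median 33.9) without (log2 fold change 5.20), Lcn2 from 354 to 724 CPM (median 598) with P3C and from 2.87 to 62.8 CPM (median 12.8) without (5.60) and Tnf from 797 to 1214 CPM (median 1094) with P3C and from 0.209 to 123 CPM (median 52.6) without (5.05). Several neutrophil chemokines had a lower response at 72 h. Cxcl5 was listed at 0 in all 6 P3C and all 25 untreated cultures of 72 h, and the log2 response of Cxcl1 was lower at 72 h by -3.50 ± 0.97 (SE, limma adjusted p = 0.00884) and that of Cxcl3 by -3.26 ± 0.67 (SE, limma adjusted p = 0.000334). Chil1 reached 0.304 CPM at most with P3C at 72 h, a difference in log2 response of -4.37 ± 0.42 (SE, limma adjusted p = 9.92e-13). H2-M2, a non-classical MHC class I gene, went from 118 to 248 CPM with P3C at 24 h to at most 1.17 CPM at 72 h, a difference in log2 response of -5.59 ± 0.68 (SE, limma adjusted p = 2.78e-09). Clec4n differed by -3.25 ± 0.84 (SE, limma adjusted p = 0.00465), but with the well position as a factor the value was 0.25. Of 10 CXC and CX3C chemokines 5 had a lower response at 72 h, beside 0.971% of all genes. Of 9 CC chemokines 7 rose over untreated cultures at that time, beside 6.5% of all genes.

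Genes with a higher log2 response at 72 h were led by Tmem176a, a membrane protein of myeloid cells, which ranged from 148 to 377 CPM (median 302) with P3C and from 0 to 126 CPM (median 2.73) without, a difference of 7.08 ± 1.21 (SE, limma adjusted p = 1.64e-05). Sh2d3c, a signalling adaptor, ranged from 172 to 392 CPM (median 352) with P3C and from 0 to 119.8 CPM (median 45.1) without, a difference of 6.48 ± 0.89 (SE, limma adjusted p = 9.11e-08). Cpq, a peptidase (6.22 ± 1.04 (SE, limma adjusted p = 1.2e-05)), Plxna3, a semaphorin receptor (5.90 ± 1.14 (SE, limma adjusted p = 0.000157)), and the mitotic genes Ube2c (6.30 ± 1.26 (SE, limma adjusted p = 0.000243)) and Ccnb2 (6.10 ± 1.32 (SE, limma adjusted p = 0.000648)) followed. None of the last 4 was called with the well position as a factor, where the differences were 2.27, 2.58, 1.72 and 1.41. With the library pool as a factor Tmem176a (2.98) and Sh2d3c (3.45) were not called either. Of the 26 proliferation genes 1 was lower than in untreated cultures at 72 h, near the share of all genes (3.89%). Lox, at 352 to 869 CPM with P3C and 0 to 14.3 CPM without, and Nos2, at 1.27 to 105 and 0 to 13.8 CPM, were higher at 72 h than at 24 h in log2 response, by 5.05 ± 0.89 (SE, limma adjusted p = 3.32e-05) and 4.67 ± 0.98 (SE, limma adjusted p = 0.000456). Of 28 glycolysis and hypoxia genes 20 rose at 72 h, beside 6.5% of all genes. At 72 h 14 of 20 disease-associated genes fell (median -1.62), against 11 of 27 homeostatic and 5 of 28 lysosomal genes and 3.89% of all genes. These list counts come from the fit without well position and were not made with it as a factor. Trem2 at 72 h ranged from 54.8 to 98.2 CPM (median 71.8) with P3C and from 473 to 939 CPM (median 689) without. Its log2 fold change was -3.22 beside -3.30 at 24 h.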

How the data were processed

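Per the labels and the study's methods, the authors extracted RNA, amplified it and made 3′-end libraries, quantified reads with Salmon 0.7.1 against Ensembl mouse transcripts (the submitters' processing notes name mm8), summed transcripts by gene and deposited CPM values (counts scaled to the reads of a library); libraries with few reads or genes had been discarded. The study's methods call the unit TPM, but no division by length is described and reads came from transcript ends. Whole reads were not recovered, since 71.0% to 89.1% of low values per culture were whole within 0.1 of a read, so depth (1.08 to 30.6 M reads) is an estimate and no count test was run.

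Values were tested with limma 3.58.1 (R 4.3.3) on log2(CPM + 1), without further normalization, over genes above 5 CPM in at least 4 cultures, in 1 fit of 374 cultures in 39 groups at 24 h given 1 stimulus or none. Separate fits covered time (77 cultures) and plate (19 cultures). P-values were two-sided and Benjamini-Hochberg adjusted. Fold changes of low genes are understated by the pseudocount. The scripts were tested on simulated data. No 2 of the columns used held identical values. A further 379 columns of cultures given other treatments or combinations were not used.

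The members and the 34 gene lists (663 genes, 1 of them missing from the table) were chosen with earlier results of these data known. Named genes were the 14 largest called changes in each direction with at least 20 CPM in the higher group, no overlap and the same direction on both plates, the 4 largest of each list, the 10 largest in each direction against LPS_hi and the 6 largest in each direction for time, without predicted gene models. Further list members were named for their known role or after their values were seen. Some list members are not reported here. Lists of other cell types are given as summed levels. Promoter windows came from RefSeq (GRCm38.p6). Alternatives changed the pseudocount, filter, scaling, variance trend, groups, plate, pool, well position and cultures left out, the last 2 in part chosen after seeing the data. Python 3.11.15 and matplotlib 3.10.9 drew the figures.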

Additional observations from a re-analysis of the deposited data

Results flagged for a closer look

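In 11 of 114 named genes 1 of the 6 P3C cultures of 24 h lay far from the other 5. All these genes were read in the same 6 cultures and chosen for their changes, so the share cannot be set against a rate by chance. The lowest culture stood apart in Slc13a3 (18.6 CPM), Il1b (28.4 CPM), Il1a (102 CPM), Ccl3 (225 CPM), Cxcl3 (7.56 CPM), Sod2 (1400.2 CPM), C1qb (138 CPM) and Lox (0.833 CPM), and in Dusp7, listed at 0. The highest culture stood apart in Pim2 (836 CPM) and Cd68 (1507 CPM). Replicate 3, the corner well of the first plate, was that culture in Il1b, Il1a, Ccl3, Cxcl3, Sod2 and Cd68.

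The response to P3C differed between the 2 plates in 19 of 113 named genes by the test of the difference in limma, with positive values for a higher log2 response on the first plate. Genes that fell more on the second plate were Hacd4 (2.96), Serpinb6b (2.94), Arhgap19 (2.84), Entpd1 (2.68), Dut (2.63), Htr2b (2.60), Lrp1 (2.56), Timp2 (2.55), Id1 (2.52), Axl (2.45), Cyp51 (2.37), St6gal1 (2.36), Rgs2 (2.33), Trem2 (2.25), Ptgs1 (2.15) and Gas6 (1.75). Genes that were higher on the second plate were Zbp1 (-3.69), Saa3 (-3.68) and Ccl5 (-3.39).

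Between 72 h and 24 h the log2 response differed in 12 genes by the same kind of test. It was higher at 72 h in Tmem176a (7.08), Sh2d3c (6.48), Ube2c (6.30), Cpq (6.22), Ccnb2 (6.10) and Plxna3 (5.90). It was lower in H2-M2 (-5.59), Chil1 (-4.37), Cxcl5 (-3.52), Cxcl1 (-3.50), Cxcl3 (-3.26) and Clec4n (-3.25). The 2 times were run on different plates, so that time and plate cannot be told apart.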

How the results depend on the processing

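The number of genes that rose with P3C at 24 h (576) stayed between 429 and 799 under all alternatives except that with no minimum fold change, which gave 956. The number that fell (3364) was 1688 with a pseudocount of 5, 1857 with the library pool as a factor and 1945 without the 3 P3C cultures of the second plate. Genes called between P3C and LPS_hi (2246) numbered 1169 with a pseudocount of 5, 1320 with the culture plate as a factor, 915 with the library pool, 491 on the P3C plates alone and 1305 with plate and well position. Genes whose response differed between 72 h and 24 h (1696) numbered 110 with the library pool and 1008 without the second plate's P3C cultures. Genes that differed between the plates (426) numbered 200 with a pseudocount of 5. Leaving out 1 culture at a time gave 573 to 619 genes that rose, 2929 to 3597 that fell, 2048 to 2344 against LPS_hi, 1388 to 1823 for time and 141 to 942 for the plates. The alternatives with well position, and those without a whole plate, were chosen after seeing the data. The 28 genes with the largest changes kept call and sign in all 560 values, which their choice by size and lack of overlap favoured. Of the values of list members 1681 kept their side of the threshold, 37 lost the call and 2 gained it (Irf7). Against LPS_hi 387 kept it and 12 lost it, and for time 258 kept it, 13 lost it and 1 changed sign, that of Clec4n (0.25 with well position as a factor). The causes of these shifts were not tested. No paired analysis was possible because the replicate numbers follow the order of the samples and the labels give none. Depth limits the low genes most in replicates 4 to 6, where the estimated depth was 1.60 to 3.06 M reads, and a gene listed at 0 there was not detectable at this depth.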
